A study of Homo sapiens with 6 samples.

Results

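The 32 genes described here encode enzymes and transporters of glycolysis and of the pentose phosphate pathway, with NADK, which makes the NADP+ that the latter reduces. They were taken by gene name from a table of 20263 genes, all 32 were found there, and all 32 passed the filter on low counts. Messenger RNA had been sequenced from THP-1, an established human monocytic line from an acute myeloid leukaemia, in 3 libraries with a short hairpin RNA against GOT1 (shGOT1, labelled as a GOT1 knockdown) and in 3 with the control hairpin (shNC, labelled wild type). GOT1 is the cytosolic aspartate aminotransferase. A single GOT1 hairpin is named in the labels, so effects of the hairpin other than the loss of GOT1 cannot be told apart from that loss. The libraries of a group are called biological replicates without a word on separate cultures or transductions, so that a p-value reflects how much these libraries varied.

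Glycolysis converts glucose to pyruvate in the cytosol, and lactate dehydrogenase turns pyruvate into lactate while restoring the NAD+ that the pathway consumes. The oxidative branch of the pentose phosphate pathway draws off glucose phosphate and yields NADPH, the reductant that keeps glutathione and thioredoxin reduced. Its other branch interconverts sugar phosphates and supplies ribose for nucleotides. Leukaemic and monocytic cells are known for high glycolytic flux, and several steps are encoded by more than 1 isozyme gene.

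The knockdown was visible in every library, since GOT1 stood at 3.27, 2.87 and 3.33 TPM in shGOT1 and at 15.3, 16.7 and 16.3 TPM in shNC. Library totals ran from 26226977 to 39144890 counts. Each log2 fold change compares shGOT1 with shNC in edgeR's quasi-likelihood fit of the counts; its standard error is abbreviated SE, and p-values were adjusted by Benjamini-Hochberg over the 13735 genes tested. Levels are the deposited TPM (abundance per gene length, with the same total in every library). Log2 ratios of TPM ran a median of 0.10 above the edgeR values over all genes tested, so that differences of that size depend on the scale. In the edgeR fit 21.9% of all genes tested rose and 22.8% fell, for comparison with the marker counts that follow. Of 15 monocyte markers 5 rose and 7 fell, and their summed level was 6419 to 6551 TPM in shGOT1 and 6344 to 6559 TPM in shNC. Among those with at least 5 TPM the largest changes were the falls of LYZ (-3.05), CD14 (-1.05) and CSF1R (-0.85) and the rise of MPO (0.67). Of the 12 erythroid markers 5 were at 0 in every library, as were 4 of 12 lymphocyte markers and 6 of 12 epithelial and fibroblast markers. Among those tested, 4 of 5 lymphocyte markers rose, 3 of 4 epithelial and fibroblast markers rose and 1 fell. None of the 4 tested erythroid markers was called. The summed level of the erythroid markers was 32.2 to 34.2 TPM in shGOT1 and 31.3 to 35.0 TPM in shNC. The summed level of the lymphocyte markers was 119 to 126 TPM in shGOT1 and 106 to 114 TPM in shNC, and that of the epithelial and fibroblast markers was 8.07 to 8.44 TPM against 4.99 to 5.27 TPM. The part of any change in cell state or cell type in the results below was not tested.

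From the counts more of the 32 genes fell than rose: in shGOT1 15 fell and 8 rose, while 9 did not pass the threshold. On the TPM scale the numbers were equal, with 11 falls and 11 rises by limma on log2(TPM + 1), where GPI, ALDOA, PKM and TALDO1 were no longer called and PFKP, TPI1 and SLC16A3 were called as rises. The background of that limma fit was not equal, with 1939 falls and 3840 rises over all 13735 genes tested. In the edgeR fit 22.8% of all genes tested fell and 21.9% rose. There the members that fell made up a larger share (46.9%) than in the background and the members that rose (8 of 32) a similar one. The median log2 fold change was -0.08 over the members and 0.00 over all genes tested (0.00452 unrounded), and the median absolute change was 0.25 in both. The list was chosen with earlier results of these data known, and no test of the list was made. The members that fell included all 3 hexokinases, the glucose transporter SLC2A3, both enzymes of the oxidative branch in the list, and NADK. The members that rose included the lactate transporter SLC16A1, LDHB and PGAM1. Changes of at least 2-fold were limited to HK3, PGD and NADK, and 10 of the 23 calls were below 0.3 in absolute log2 fold change. The number that rose was 5 without shGOT1 replicate 2, and 4 with limma on TPM after median-of-ratios scaling, where 14 fell.

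**Figure D1:**
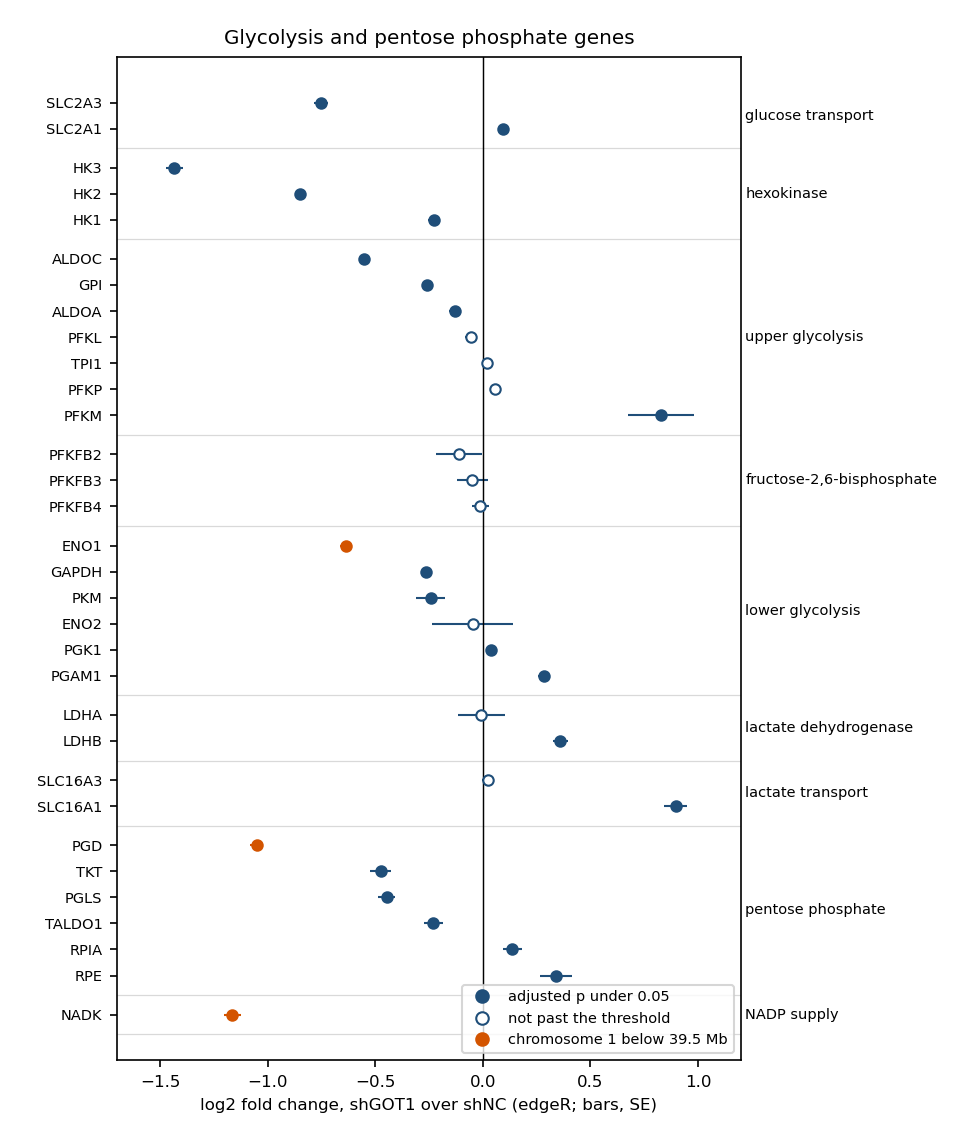
Log2 fold change of each of the 32 genes (shGOT1 over shNC, edgeR, horizontal axis) with its SE as a bar, grouped by role. Filled points passed the threshold, open points did not, and orange points are the 3 genes of the distal chromosome 1 segment; the hexokinases lie left of 0, from -0.23 to -1.43, and SLC16A1 lies at 0.90.

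Glucose enters the cell through facilitative transporters, and the pair measured here diverged. SLC2A3, which encodes the high-affinity transporter GLUT3, had 25.996, 25.004 and 26.454 TPM in shGOT1 and 40.4, 41.9 and 40.0 TPM in shNC. All 3 shGOT1 libraries were below all 3 shNC libraries (log2 fold change -0.75, SE 0.0339, edgeR adjusted p = 2.48e-05). SLC2A1, the gene of GLUT1, was the more abundant of the pair, with 148, 151 and 150 TPM against 134, 130 and 131 TPM. Its groups did not overlap in TPM, and the count fit gave a small rise of 0.09 (SE 0.0220, edgeR adjusted p = 0.0160) that was lost without shGOT1 replicate 2 (edgeR adjusted p = 0.0629) and without shNC replicate 2 (0.0588). The summed TPM of these genes was nearly the same in both groups, 176 ± 1.35 in shGOT1 and 173 ± 1.45 in shNC (SD, n = 3), while SLC2A1 made up 85.3% ± 0.424 of it in shGOT1 and 76.4% ± 0.603 in shNC. The near equality of the sums depends on the scale, since log2 ratios of TPM ran a median of 0.10 above the count fit. SLC2A3 has a near-identical paralog, SLC2A14, and reads may have been split between them.

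Hexokinases trap glucose in the cell by phosphorylating it, and at this step all 3 genes of the list fell, though by unequal amounts. HK2, the inducible isozyme bound to mitochondria, had 83.3, 81.4 and 81.0 TPM in shGOT1 and 137, 137 and 139 TPM in shNC. The groups were far apart relative to their spread (log2 fold change -0.85, SE 0.0208, edgeR adjusted p = 5.22e-06). HK3, an isozyme typical of myeloid cells, had 13.5, 12.9 and 12.6 TPM against 31.4, 31.4 and 31.8 TPM. It had the largest fall of the 32 genes (-1.43, SE 0.0396, edgeR adjusted p = 5.90e-06), or 2.70-fold; it overlaps UNC5A on the opposite strand, which averaged 1.04 TPM. HK1, the constitutive isozyme, fell least, from 85.0 ± 0.444 to 77.9 ± 1.49 TPM (-0.23, SE 0.0243, edgeR adjusted p = 0.000653). Because the 3 falls were unequal, the makeup of the step differed between the groups. HK1 held 33.4% ± 0.253 of hexokinase TPM in shNC and 45.1% ± 0.658 in shGOT1, HK2 held 54.2% ± 0.219 and 47.4% ± 0.464, and HK3 held 12.4% ± 0.0463 and 7.53% ± 0.203 (SD, n = 3 each). HK2 was thus clearly above HK1 in shNC, while in shGOT1 the HK2 share exceeded the HK1 share by less than 3 percentage points in every library.

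**Figure D2:**
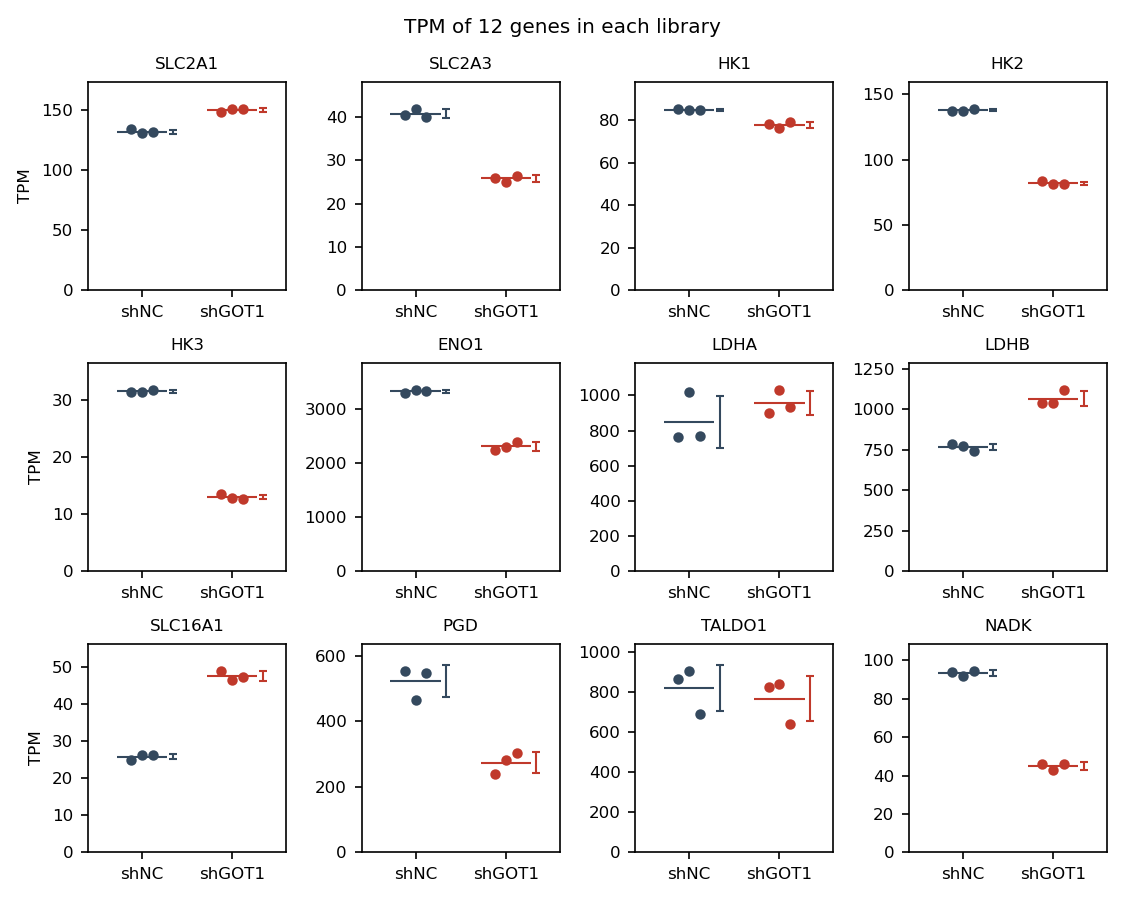
TPM (vertical axes, from 0) of 12 genes in each library, with shNC libraries in dark blue and shGOT1 libraries in red; horizontal lines are means and the bars beside them the SD of 3 libraries. HK2, HK3, SLC2A3, ENO1, PGD and NADK show separate groups with shGOT1 lower, SLC16A1 and LDHB with shGOT1 higher, and LDHA and TALDO1 overlap.

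From glucose phosphate to the triose phosphates, falls outnumbered rises in the count fit but not with limma on log2(TPM + 1). The latter no longer called GPI and ALDOA, and it called PFKP and TPI1 as rises. ALDOC, an aldolase isozyme known from brain and induced by low oxygen, stood at 303 ± 3.82 TPM in shNC and 245 ± 2.61 TPM in shGOT1, a fall with a log2 fold change of -0.55 (SE 0.0247, edgeR adjusted p = 2.40e-05). Its fall was smaller in TPM than in the count fit, and it overlaps AC005726.2 on the same strand, which averaged 13.7 TPM. GPI, the isomerase that makes fructose phosphate, fell by 0.26 and had 644, 585 and 671 TPM in shGOT1 and 699, 718 and 690 TPM in shNC, with no overlap; limma on log2(TPM + 1) did not call it (adjusted p = 0.0638). ALDOA, the main aldolase, had 2231, 2239 and 2412 TPM against 2346, 2454 and 2300 TPM; the TPM groups overlapped, and the count fit gave a fall of 0.13 that limma on log2(TPM + 1) did not call (adjusted p = 0.416). TPI1, the triose phosphate isomerase, averaged 1161 ± 4.29 TPM in shGOT1 and 1066 ± 17.0 TPM in shNC. From counts its log2 fold change was 0.02 (edgeR adjusted p = 0.434), while limma on log2(TPM + 1) gave a rise of 0.12 (adjusted p = 0.00623).

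Phosphofructokinase commits sugar to glycolysis. Its abundant isozymes did not pass the threshold, with PFKL at 255 ± 3.40 against 247 ± 7.03 TPM (log2 fold change -0.05, edgeR adjusted p = 0.160) and PFKP at 299 ± 2.24 against 260 ± 9.67 TPM (0.06, edgeR adjusted p = 0.0569). PFKL passed without shNC replicate 3 (-0.08, edgeR adjusted p = 0.0335), and limma on log2(TPM + 1) called PFKP a rise (0.20, adjusted p = 0.00547). The muscle isozyme PFKM rose (0.83, SE 0.153, edgeR adjusted p = 0.00612) at a far lower level, with 7.49, 8.05 and 9.30 TPM in shGOT1 and 6.14, 3.78 and 6.08 TPM in shNC. It held 1.47% ± 0.152 of phosphofructokinase TPM in shGOT1 and 1.04% ± 0.279 in shNC. PFKM overlaps SENP1 on the opposite strand, which had a like mean level (7.61 TPM), so its value is uncertain; the call was lost with limma on log2(FPKM + 1) (adjusted p = 0.0525). The PFKFB enzymes set the level of the bisphosphate that activates phosphofructokinase, and none of the 3 measured passed. PFKFB4 was the highest of them at 109 ± 1.204 against 103 ± 10.1 TPM (-0.01, SE 0.0398), followed by PFKFB3 at 17.5 ± 0.788 against 17.3 ± 1.14 TPM (-0.05, SE 0.0714) and PFKFB2 at 1.81 ± 0.167 against 1.88 ± 0.188 TPM (-0.11, SE 0.106). The order of their levels was the same in all 6 libraries.

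In lower glycolysis the members moved apart although they act in sequence. ENO1, the main enolase, had 2240, 2303 and 2401 TPM in shGOT1 and 3305, 3363 and 3345 TPM in shNC (log2 fold change -0.64, SE 0.0259, edgeR adjusted p = 1.76e-05). In shNC its level lay above that of ALDOA in every library, and in shGOT1 the ranges of these genes overlapped. GAPDH, the dehydrogenase that yields the NADH of glycolysis and a common reference gene, had 3489, 3500 and 3497 TPM against 3938, 3895 and 3868 TPM, a small fall (-0.26, SE 0.0158, edgeR adjusted p = 7.38e-05) with no overlap. PKM, the pyruvate kinase, had 1836, 1567 and 1659 TPM against 1959, 1738 and 1890 TPM. These ranges overlapped, and its fall (-0.24, edgeR adjusted p = 0.0276) was lost without shGOT1 replicate 2 (edgeR adjusted p = 0.0701), shGOT1 replicate 3 (0.0767), shNC replicate 1 (0.0798) or shNC replicate 3 (0.0736). PGAM1, the mutase between GAPDH and enolase, stood at 1161 ± 29.1 TPM in shNC and rose to 1519 ± 23.5 TPM in shGOT1 (0.28, SE 0.0252, edgeR adjusted p = 0.000322). PGAM4, a near-identical retrocopy, was at 60.5 ± 3.10 against 44.6 ± 4.80 TPM and rose as well (0.33, a call lost without shGOT1 replicate 1 or 2 or shNC replicate 1 or 2), so reads may be shared between them. PGK1, the phosphoglycerate kinase, had 697, 691 and 697 TPM in shGOT1 and 628, 630 and 629 TPM in shNC, with no overlap. In the count fit it passed with a smaller difference of 0.04 (SE 0.0123, edgeR adjusted p = 0.0419), so the size of its rise depended on the scale. The call was lost whichever library was left out (edgeR adjusted p = 0.0849 to 0.117). ENO2, the neuronal enolase, was low and did not pass (31.6, 25.3 and 38.99 TPM in shNC against 33.2, 28.8 and 29.6 TPM in shGOT1; -0.05, or 0.21 without shNC replicate 3).

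At the pyruvate to lactate step the B subunit rose and the A subunit did not pass. LDHB, whose subunit favours lactate oxidation, had 1035, 1039 and 1119 TPM in shGOT1 and 782, 773 and 743 TPM in shNC (log2 fold change 0.36, SE 0.0336, edgeR adjusted p = 0.000390). LDHA, whose subunit favours lactate production, had 900, 1032 and 935 TPM against 761, 1016 and 767 TPM, a spread set by shNC replicate 2. The fit gave -0.01 (SE 0.110, edgeR adjusted p = 0.971), and without shNC replicate 2 it gave a rise of 0.14 (edgeR adjusted p = 0.00503). LDHA made up 46.5%, 49.8% and 45.5% of the step's TPM in the shGOT1 libraries and 49.3%, 56.8% and 50.8% in the shNC libraries, and the ranges overlapped. Lactate leaves or enters the cell through monocarboxylate transporters. SLC16A1, the gene of MCT1, which carries lactate in either direction, had 49.1, 46.5 and 47.5 TPM against 25.1, 26.4 and 26.2 TPM. This was the largest rise of the 32 genes (0.90, SE 0.0523, edgeR adjusted p = 6.65e-05), a level 1.86-fold higher with no overlap. SLC16A3, the gene of MCT4, the exporter of glycolytic cells, was more than 10 times as abundant in every library at 543 ± 19.6 TPM in shGOT1 and 489 ± 14.9 TPM in shNC. It did not pass in the count fit (0.02, edgeR adjusted p = 0.514) but limma on log2(TPM + 1) called a rise of 0.15 (adjusted p = 0.0218); the gene overlaps CSNK1D on the opposite strand. The SLC16A1 share of their summed TPM was 8.08% ± 0.109 in shGOT1 and 5.04% ± 0.244 in shNC. BSG, the chaperone that carries both transporters to the membrane, stood at 784 ± 32.8 TPM in shNC and 1005 ± 40.3 TPM in shGOT1, a rise (0.28, SE 0.0230, edgeR adjusted p = 0.000256).

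**Figure D3:**
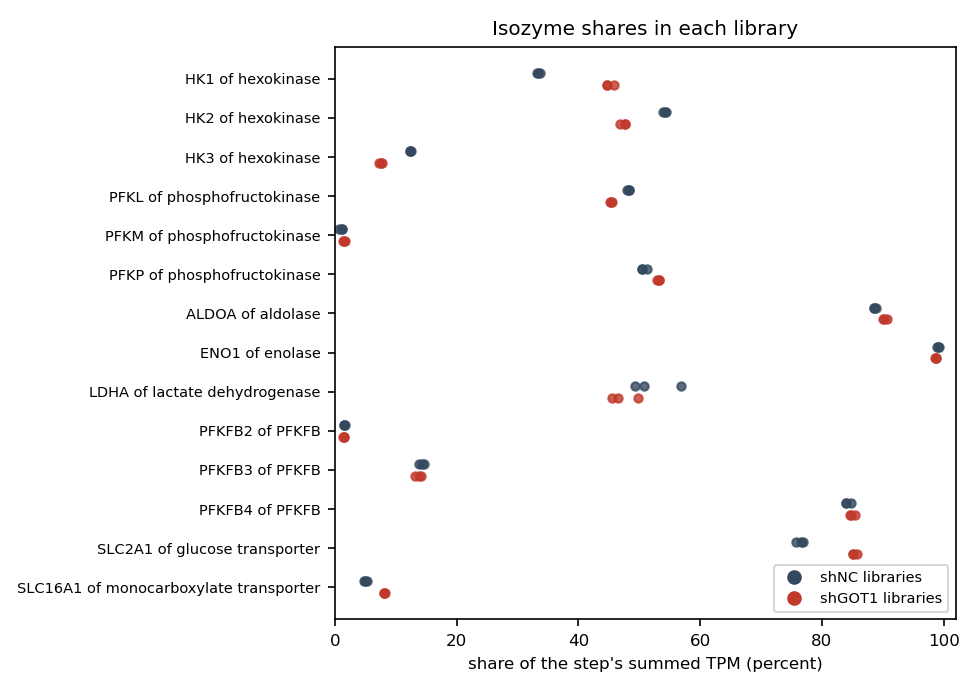
Share of each step's summed TPM (percent, horizontal axis) held by the named gene in each shNC library (dark blue) and each shGOT1 library (red). The groups are apart for 10 of the 14 shares, most widely for HK1 (33.4% in shNC, 45.1% in shGOT1) and SLC2A1 (76.4% and 85.3%), and overlap for LDHA and the 3 PFKFB genes.

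Across 8 steps with several isozymes or transporters 14 shares were compared, and the groups did not overlap in 10 of them. For comparison, 55.2% of the 13735 genes tested had separate TPM ranges in the groups; the shares of a step sum to its whole, so those of the hexokinases, phosphofructokinases and PFKFB genes are not independent of each other. The exact two-sided permutation test gave each of these 10 a p of 0.1, the smallest that 3 libraries against 3 allow, and 0.14 after Benjamini-Hochberg adjustment over the 14, so none could pass. Shares do not depend on the scaling of the libraries, since all genes of a library are scaled alike. The largest shifts were those of HK1 (11.7 percentage points) and SLC2A1 (8.90 percentage points). Summed TPM of the 3 hexokinases was 173 ± 2.17 in shGOT1 and 254 ± 0.904 in shNC, and that of the enolases 2345 ± 79.6 and 3369 ± 28.8. For lactate dehydrogenase it was 2020 ± 73.9 in shGOT1 and 1614 ± 152 in shNC. All 32 genes together held 1.94%, 1.94% and 1.97% of TPM in shGOT1 and 2.09%, 2.10% and 2.05% in shNC.

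The pentose phosphate genes split by branch in part. PGD, the phosphogluconate dehydrogenase that makes the later NADPH of the oxidative branch, had 238, 281 and 303 TPM in shGOT1 and 554, 466 and 548 TPM in shNC (log2 fold change -1.05, SE 0.0279, edgeR adjusted p = 5.75e-06). Its TPM varied more than its counts. In normalized CPM it stood at 231, 231 and 244 against 488, 490 and 485, and the SE rests on these. PGLS, the lactonase that acts just before it, averaged 147 ± 3.49 TPM in shNC and 114 ± 4.41 TPM in shGOT1, a fall (-0.45, SE 0.0396, edgeR adjusted p = 0.000322). NADK, the cytosolic NAD kinase, had 46.3, 42.7 and 45.9 TPM against 93.8, 91.9 and 94.6 TPM, a fall of 1.16 on the log2 scale (SE 0.0413, edgeR adjusted p = 1.13e-05) and a level 2.24-fold lower. Its mitochondrial counterpart NADK2 rose (0.31, edgeR adjusted p = 0.0170).

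In the other branch the members moved both ways. TKT, the transketolase, averaged 580 ± 3.83 TPM in shNC and fell to 452 ± 15.8 TPM in shGOT1 (-0.47, SE 0.0492, edgeR adjusted p = 0.000597). TALDO1, the transaldolase, had 824, 838 and 639 TPM against 863, 905 and 689 TPM. These ranges overlapped, the third replicate was lowest in each group, and the fall of 0.23 in the count fit (edgeR adjusted p = 0.00623) was not called by limma on log2(TPM + 1) (adjusted p = 0.627). In normalized CPM TALDO1 stood at 440, 452 and 421 against 507, 539 and 492, with no overlap. RPE, the ribulose phosphate epimerase, stood at 51.6 ± 6.00 TPM in shNC and rose to 69.98 ± 3.29 TPM in shGOT1 (0.34, SE 0.0737, edgeR adjusted p = 0.0112) and overlaps KANSL1L on the opposite strand. RPIA, the isomerase that forms ribose phosphate, rose from 46.4 ± 0.463 to 54.8 ± 2.00 TPM (0.14, edgeR adjusted p = 0.0436), which was also lost whichever library was left out (edgeR adjusted p = 0.0636 to 0.112). RPE and RPIA are the enzymes that lead from the oxidative branch to ribose and to the transketolase substrates.

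NADK, PGD and ENO1, which are 3 of the 6 members with the largest falls, lie on the same chromosome arm. NADK (ENSG00000008130, chromosome 1, 1751232 to 1780069, minus strand), ENO1 (ENSG00000074800, 8861002 to 8879249, minus strand) and PGD (ENSG00000142657, 10398592 to 10420144, plus strand) lie in a distal segment of chromosome 1 whose tested genes run from SAMD11 (start 923928) to MACF1 (end 39487177), in coordinates as the table gives them. Its boundary comes from earlier results of these data, in which a whole distal stretch of chromosome 1 was lower in shGOT1. Of the 360 genes tested there 77.5% fell, against 21.3% of the 13375 tested elsewhere, and the median log2 fold change was -0.67 there and 0.03 on the rest of chromosome 1. ENO1 lay near the middle of that segment, with 55.8% of its genes lower. NADK and PGD lay toward its lower end, with 7.78% and 12.2% of the genes lower. SLC2A1 lies outside the segment on the same chromosome and rose slightly.

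Among their neighbours the same direction prevailed, with exceptions. The 3 nearest tested genes on either side of each, at a mean of at least 5 TPM, gave 5 falls of 6 for each of the 3 members. All these neighbours lie in the segment, of whose tested genes 77.5% fell, so they give no support separate from it. Around NADK the neighbours' median log2 fold change was -0.75, with GNB1, a G protein subunit, at 308 ± 2.22 TPM in shNC and 167 ± 1.61 TPM in shGOT1 (-0.99, SE 0.0185). SLC35E2B did not pass there (1.27, SE 0.612, edgeR adjusted p = 0.142; 1.74 and past the threshold without shGOT1 replicate 3). Around PGD the median was -0.70, with a range of -0.87 for NMNAT1, an NAD synthesis gene, to -0.14 for CENPS, which did not pass. PGD at -1.05 was below all 6 of its neighbours. Around ENO1 the median was -0.51, from -1.19 for UTS2 to -0.16 for SPSB1, which did not pass, and it included other sugar genes. SLC2A5, the fructose transporter GLUT5, fell by 0.37, with 76.7, 56.8 and 56.6 TPM in shGOT1 and 73.6, 76.8 and 78.97 TPM in shNC; its TPM overlapped, and limma on log2(TPM + 1) did not call it. H6PD, the glucose phosphate dehydrogenase of the endoplasmic reticulum, fell by 0.29 (24.3 ± 0.528 against 27.3 ± 0.614 TPM). Both fell less than most genes of the segment, of which 79.2% and 83.1% were lower. Without the 3 segment genes, 12 of the other 29 members fell, where 21.3% of all genes tested outside the segment fell. The median log2 fold change was -0.05 over these 29 members and 0.01 over all genes tested outside the segment. Loss of DNA in the segment and regulation of its genes cannot be told apart with RNA alone.

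**Figure D4:**
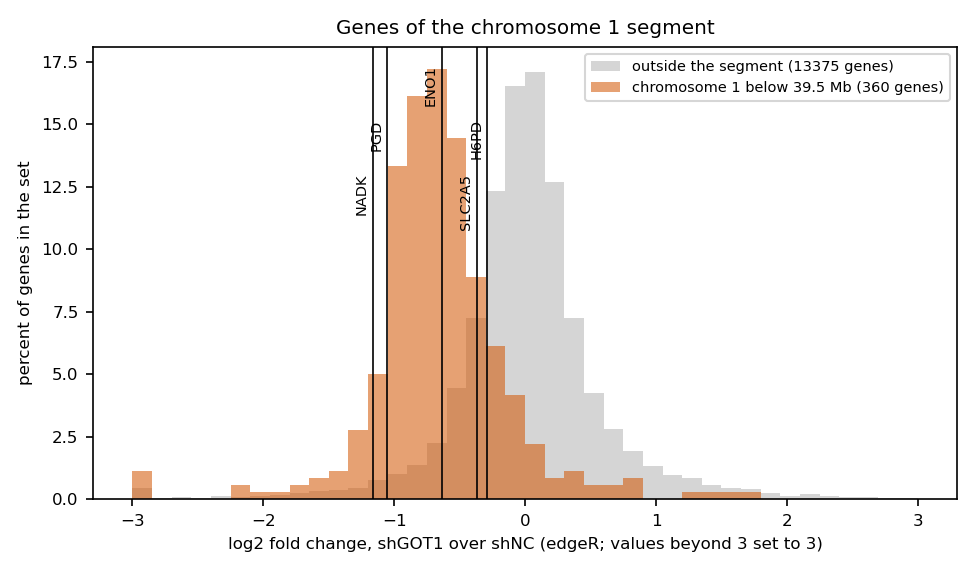
Distribution of log2 fold changes (edgeR, horizontal axis) as percent of genes for the 360 genes tested in the distal chromosome 1 segment (orange) and the 13375 tested elsewhere (grey); vertical lines mark 5 sugar metabolism genes of the segment, and values beyond 3 are drawn at 3. The segment is centred near -0.67, ENO1 lies at its centre, NADK and PGD on its lower side, and SLC2A5 and H6PD on its upper side.

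Members also lie close together on chromosome 12. On its short arm, GAPDH (6533927 to 6538374), TPI1 (6867119 to 6870948), ENO2 (6913745 to 6923698) and SLC2A3 (7919230 to 7936275) lie near each other, and their log2 fold changes were -0.26, 0.02, -0.05 and -0.75. GAPDH and SLC2A3 fell, and TPI1 and ENO2 did not pass.

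Many glycolytic genes are known targets of the hypoxia-inducible factor, whose core site reads ACGTG or GCGTG, and PGD and other pentose phosphate genes are known targets of NRF2, whose site holds TGACNNNGC. The 250 bases before a transcription start were searched for both on either strand, in RefSeq sequence of GRCh38.p14; 29 of the 32 members matched, with 56 starts. The first motif was in 51.8% of the members' windows and in 43.2% of all 35116 windows, and the second in 12.5% and 10.9%. A CACGTG counts as the first motif on both strands, and CACGTG itself was in 12.5% and 6.34% of windows. Below are the windows, 5′ to 3′ on the gene's strand, of HK2 and ALDOC, which fell, of LDHA and PGK1, which were at -0.01 and 0.04 in the fit (LDHA at 0.14 without shNC replicate 2), and of PGD. They are shown as examples that hold the hypoxia motif. Capitals mark matches of either motif on either strand.
HK2: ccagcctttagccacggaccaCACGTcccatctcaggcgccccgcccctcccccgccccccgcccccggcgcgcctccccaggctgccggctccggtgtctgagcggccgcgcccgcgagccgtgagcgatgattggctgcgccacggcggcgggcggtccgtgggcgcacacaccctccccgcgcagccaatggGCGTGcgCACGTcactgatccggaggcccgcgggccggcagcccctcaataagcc
ALDOC: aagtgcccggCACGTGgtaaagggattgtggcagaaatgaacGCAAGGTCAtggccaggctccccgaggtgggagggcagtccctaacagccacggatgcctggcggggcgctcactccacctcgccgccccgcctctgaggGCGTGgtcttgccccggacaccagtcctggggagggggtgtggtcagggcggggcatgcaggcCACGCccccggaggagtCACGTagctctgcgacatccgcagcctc
LDHA: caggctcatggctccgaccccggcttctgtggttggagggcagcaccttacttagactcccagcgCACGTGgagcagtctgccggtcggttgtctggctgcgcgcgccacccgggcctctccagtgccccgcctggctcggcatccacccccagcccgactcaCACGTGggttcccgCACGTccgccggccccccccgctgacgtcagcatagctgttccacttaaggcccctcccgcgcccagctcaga
PGK1: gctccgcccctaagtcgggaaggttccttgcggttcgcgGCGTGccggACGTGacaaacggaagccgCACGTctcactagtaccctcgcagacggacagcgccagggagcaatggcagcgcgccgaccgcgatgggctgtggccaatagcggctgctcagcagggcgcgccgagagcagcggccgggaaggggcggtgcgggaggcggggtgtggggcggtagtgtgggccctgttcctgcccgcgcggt
PGD: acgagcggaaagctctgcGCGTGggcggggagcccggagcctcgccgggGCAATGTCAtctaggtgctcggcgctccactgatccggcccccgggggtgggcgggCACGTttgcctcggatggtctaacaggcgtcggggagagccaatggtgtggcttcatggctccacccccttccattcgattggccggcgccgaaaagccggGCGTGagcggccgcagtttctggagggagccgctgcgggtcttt
The windows are chr2:74833877-74834126 (plus strand) for HK2, chr17:28576896-28577145 (minus strand) for ALDOC, chr11:18394313-18394562 (plus strand) for LDHA, chrX:78103998-78104247 (plus strand) for PGK1 and chr1:10398814-10399063 (plus strand) for PGD. RefSeq lists another start for HK2 and for LDHA, whose windows are not shown and hold the hypoxia motif 6 times and 1 time. In the windows shown the hypoxia motif occurred 3 times in HK2, 5 times in ALDOC, 5 times in LDHA, 3 times in PGK1 and 3 times in PGD, counting both strands, so that each CACGTG counts on either strand. The NRF2 motif occurred once each in ALDOC and PGD, read on the opposite strand. A match of letters is a description of the sequence and not evidence of binding.

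The remaining genes of these pathways changed in both directions, as did genes at large. Over all genes tested 21.9% rose and 22.8% fell, and no list was tested as a set. Of 33 other glycolysis and pentose phosphate enzymes 22 were tested, of which 6 rose and 3 fell, with a median log2 fold change of 0.13. PGM2, a phosphopentomutase, averaged 57.5 ± 3.60 TPM in shNC and rose to 87.7 ± 2.30 TPM in shGOT1 (0.47, SE 0.0376, edgeR adjusted p = 0.000222), and MINPP1, a phosphatase that also acts on bisphosphoglycerate, rose (0.34). H6PD and PFKFB1 were among those that fell, the latter at under 1 TPM. Of 26 other sugar and monocarboxylate transporters 21 were tested, of which 4 rose and 4 fell. BSG, SLC2A5 and SLC2A6 (-0.28), a lysosomal hexose transporter, were those past the threshold with at least 5 TPM.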

How the data were processed

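Poly(A)-selected RNA of 3 shGOT1 and 3 shNC libraries was measured. Whole, unnormalized counts of each gene were deposited beside its TPM and FPKM; in the deposited TPM every library has the same total after division by gene length, and the deposited FPKM divide by gene length and depth. FastQC, Trimmomatic, StringTie and DESeq2 were used, per the submitters' processing notes; the aligner, genome build and strand setting were not given in the sources used here. Of the 32 members 22 have the same coordinates in GENCODE release 29 (GRCh38). 9 members overlap another gene in the table, and abundant glycolytic genes have pseudogenes, so reads could be misassigned. The deposited counts entered edgeR 4.0.16 (R 4.3.3) with filterByExpr, TMM normalization and glmQLFTest, 2-sided, at an adjusted p of 0.05; the SE is the log2 fold change divided by the square root of F. Alternatives used limma 3.58.1 and DESeq2 1.42.0. Shares and permutation tests used SciPy 1.17.1. Only the edgeR and limma fits were tested on simulated data. The simulation changed few genes and held no gene lengths, so it cannot decide between the count and TPM scales. A count of 3 equals 0.0766 to 0.114 CPM, which covers counting error only. Libraries of a group differed beyond counting error (chi-square of 17.5 to 20.5 for each degree of freedom), so none was counted as a duplicate. Genes named besides the members are GOT1, up to 4 called genes per list with the largest changes at a mean of at least 5 TPM, and the 3 tested genes on either side of each segment member; H6PD, NADK2 and PFKFB1 complete their pathway. Some genes that these rules select are not reported here. The members and lists were chosen with earlier results of these data known.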

Additional observations from a re-analysis of the deposited data

How the results depend on the processing

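The number of members that fell was 15 in the edgeR fit and 11 to 15 under every alternative listed here (DESeq2, DESeq2 size factors, scaling without the segment, a filter of none or of 5 TPM, limma on TPM or FPKM, the replicate block, and leaving out each library). The number that rose, 8, was 11 with limma on log2(TPM + 1) and on log2(TPM + 0.1), the fits that also gave 11 falls; it was 4 with limma after median-of-ratios scaling and 5 to 6 when a library was left out. No pairing was found, since same-numbered libraries deviated from their group means with correlations of 0.0282, 0.00893 and -0.000322; with the replicate number as a block 5 members rose and 15 fell. Genes of the other pathway lists that fell numbered 35, and 20, 20 and 22 with limma on log2(TPM + 1), log2(TPM + 0.1) and log2(FPKM + 1). Over all genes 3126 fell, against 1939 and 1931 with limma on log2(TPM + 1) and log2(TPM + 0.1); the share of calls that were rises was 49.0% in the edgeR fit and 66.4% with limma on log2(TPM + 1), where the median shift was 0.10. The segment median was -0.69 to -0.67 when a library was left out.

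Reversed signs were seen for 5 members, all of them not past the threshold in the edgeR fit. PFKL became 0.0440, 0.0441 and 0.00613 with limma on log2(TPM + 1), log2(TPM + 0.1) and log2(FPKM + 1); LDHA 0.183, 0.183 and 0.145; and PFKFB4 0.0876, 0.0884 and 0.0494. PFKFB3 became 0.0159 and 0.0167 with the TPM fits. LDHA was also 0.0764 after median-of-ratios scaling, 0.00656 with the replicate block and 0.00908 at a mean of at least 5 TPM, where PFKFB4 was 0.00252. When a library was left out, the range was -0.0778 to 0.139 for LDHA, -0.0904 to 0.00649 for PFKFB3, -0.0441 to 0.0247 for PFKFB4 and -0.174 to 0.207 for ENO2, the upper values without shNC replicate 2 (ENO2, shNC replicate 3). The cause was not tested.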

Other observations

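The genes on either side of these pathways changed in both directions, and the same edgeR fit is used. For comparison, 21.9% of all genes tested rose and 22.8% fell. None of the lists below was tested as a set. Of 21 genes of gluconeogenesis and pyruvate entry 18 were tested, of which 6 fell and 2 rose (median log2 fold change -0.12). FBP1, the fructose bisphosphatase that opposes phosphofructokinase, averaged 35.6 ± 1.80 TPM in shNC and fell to 19.4 ± 1.18 TPM in shGOT1 (SD, n = 3; -0.98, SE 0.0674, edgeR adjusted p = 0.000120). PDK1, a kinase that inhibits pyruvate dehydrogenase, fell (-0.46), as did MPC1, a subunit of the mitochondrial pyruvate carrier (-0.35), while DLAT, the transacetylase of pyruvate dehydrogenase, rose (0.46). The call of DLAT was lost without shGOT1 replicate 2 (edgeR adjusted p = 0.0562), shGOT1 replicate 3 (0.0619), shNC replicate 1 (0.0614) or shNC replicate 3 (0.0588). Of 12 tested genes listed as NADPH-producing enzymes outside the pentose phosphate pathway 4 rose and 4 fell, but the falls numbered 1 to 3 when a library was left out. With limma on log2(TPM + 1) 1 of them fell, where 1939 of all 13735 genes tested fell. IDH1, the cytosolic isocitrate dehydrogenase, averaged 126 ± 4.35 TPM in shNC and rose to 183 ± 1.16 TPM in shGOT1 (0.40, SE 0.0352, edgeR adjusted p = 0.000313), and the malic enzymes ME3 (0.44) and ME2 (0.31) rose, though neither passed with limma after median-of-ratios scaling. The falls were those of ME1, NNT, GLUD1 and FDXR (-0.51), of which FDXR is a mitochondrial reductase known to use NADPH and not to produce it; the first 3 were named after their values were seen.

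Of 24 regulators of glycolysis 12 fell and 3 rose (median -0.14), where 22.8% of all genes tested fell and 21.9% rose. With limma on log2(TPM + 1) 6 of these regulators fell and 5 rose, where 1939 of all 13735 genes tested fell and 3840 rose. In the edgeR fit without shGOT1 replicate 3, 8 of the regulators fell. EGLN3, an oxygen-sensing prolyl hydroxylase that is itself induced by hypoxia, averaged 8.18 ± 0.398 TPM in shNC and fell to 3.30 ± 0.312 TPM in shGOT1 (-1.49, SE 0.139, edgeR adjusted p = 0.000389). BACH1, a haem-binding repressor of antioxidant genes, fell (-0.81), and MLXIPL, which encodes the glucose-responsive factor ChREBP, rose (0.86). HIF1A averaged 30.7 ± 2.73 TPM in shGOT1 and 28.7 ± 0.773 TPM in shNC (-0.01, edgeR adjusted p = 0.937); it was named after its values were seen. Of 23 tested hypoxia response genes outside glycolysis 7 rose and 6 fell (median -0.01). The falls included ANKRD37 (-0.96), BHLHE40 (-0.55), DDIT4 (-0.44) and KDM3A (-0.38), the last not called by limma on log2(TPM + 1) (adjusted p = 0.374). These falls are named as the largest changes of the list at a mean of at least 5 TPM. Each of the 7 rises was smaller or stood under 5 TPM, and none is named here.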
